A study of Mus musculus with 6 samples.

Results

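The T cell receptor alpha joining region is the stretch of mouse chromosome 14 that holds the alpha joining segments and the alpha constant region. It was taken as chr14:54770001-54860000 of build mm9, which is 90 bins of 1 kb out of 2641864 bins on chromosomes 1 to 19, X and Y. It closes the alpha/delta locus, chr14:52800001-54860000, of 2060 bins. The rest of the locus was split into a variable part, the first 1800 bins from chr14:52800001, and a part between variable and joining segments, the next 170 bins from chr14:54600001. All bins were chosen by position. The position was picked after H3K4me3 reads of these libraries had been seen to differ there, so the H3K4me3 values of CD4 against CD8 are a description.

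Mature CD4+ T cells and mature CD8+ T cells were taken from the thymus of C57BL/6 mice. Micrococcal nuclease was used to reduce the chromatin to mononucleosomes, and rabbit polyclonal antibodies against H3K4me3 or H3K36me3 pulled down the marked ones. Each cell type also has an input library made with no antibody. The sources used here do not give age, sex, number of animals or the sort. There was 1 library per mark and cell type, so no difference has a replicate check and no p-value is given. Intervals are exact 95% intervals for counting error alone, and they compare the libraries, not the cell types. Marker genes of the 2 cell types were not checked, because no mm9 annotation was used here.

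The alpha chain of the T cell receptor is assembled in the thymus by joining a variable segment to a joining segment. The DNA between them, which includes the delta chain genes, is cut out as a circle. Joining segments far from the constant region tend to be used first, and later rounds on the same allele move towards the constant region. Transcription through the joining segments accompanies this recombination, and H3K4me3 is bound by a domain of the RAG2 recombinase protein. H3K4me3 otherwise marks active promoters and H3K36me3 marks transcribed gene bodies.

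RefSeq names for build GRCm38 give the order of the segments. The delta segments Trdv4, Trdd1, Trdd2, Trdj1, Trdj2, Trdc and Trdv5 come first. They are followed by 60 alpha joining segments from Traj61 to Traj1, of which 9 are annotated as pseudogenes, then by the constant region Trac and by Dad1, a gene for a subunit of the enzyme that attaches sugar chains to proteins. The files use another build, so no segment is placed on a bin below.

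H3K4me3 covered most of the joining region in both cell types, and there was more of it in the CD4 library. The region held 10145 CD4 reads and 3819 CD8 reads of H3K4me3. Scaled to library size this was 946 RPM (reads per 1000000 kept) in CD4 and 315 RPM in CD8. CD4 stood at 27.9 times its input (25.04 to 31.1), and CD8 at 11.1 times (9.85 to 12.6). The CD4 over CD8 fold was 3.86 (3.72 to 4.01) relative to the median window enriched in both cell types, and 3.0 relative to total reads. In bulk chromatin, fewer marked cells and less mark per cell cannot be told apart.

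To be called enriched, a bin needed 20 reads or more and 4 times the RPM of the input, with input set to at least 3 reads. By this rule 72 of the 90 bins were enriched in CD4 and 56 in CD8, and 55 in both. Over the genome 1.22% of bins passed in CD4 and 1.1% in CD8. The minimum is a number of reads, so the library with more reads in a bin passes more easily. At a minimum of 50 reads 61 CD4 bins and 28 CD8 bins passed.

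Most enriched bins of CD4 adjoined each other. A run of 65 adjacent bins, chr14:54778001-54843000, held 9728 CD4 and 3395 CD8 reads, against 258 CD4 and 211 CD8 input reads. It was the longest of 16875 CD4 runs in the genome, and the next longest measured 16 kb. The CD8 library had 9 runs in the joining region. Its longest, chr14:54809001-54836000, measured 27 kb and held 2075 CD8 reads, and was the longest of 15678 CD8 runs, ahead of one of 14 kb. At 8 times the input these longest runs measured 57 kb in CD4 and 7 kb in CD8.

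Stretches of the same length elsewhere held fewer enriched bins, though not always fewer reads. The genome was tiled in 29332 stretches of 90 kb. No other stretch had more than 26 enriched bins in CD4 or 31 in CD8. By reads, the joining region ranked 4 in CD4 and 558 in CD8. Among 5837 stretches with at least 1000 H3K4me3 reads in CD4 and CD8 together, its CD4 over CD8 fold ranked 75, above 98.7% of the others, whose median fold was 1.03. Nothing is read from this rank of the fold, because the region was chosen on the same contrast.

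**Figure D1:**
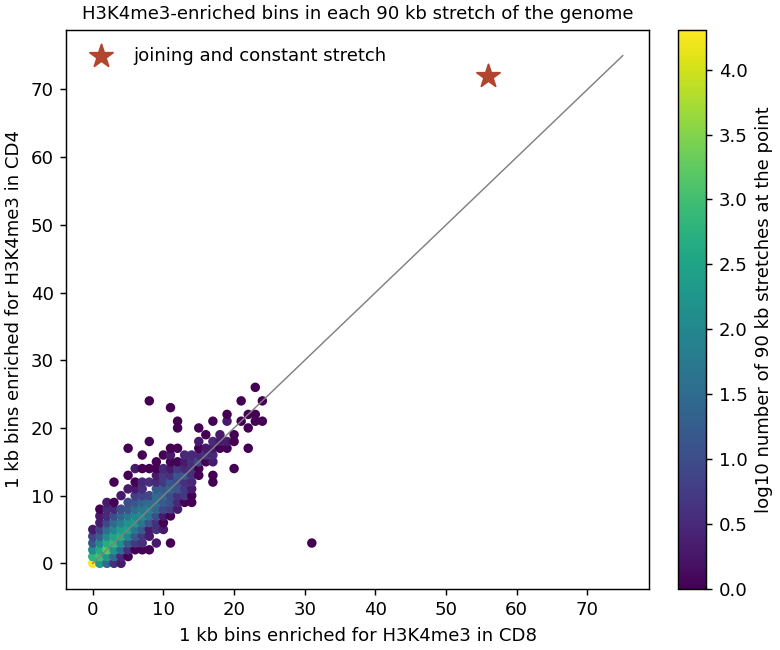
Number of 1 kb bins enriched for H3K4me3 in CD8 (x axis) and CD4 (y axis) in each 90 kb stretch of the genome, coloured by the number of stretches at a point, with a line of equal counts. The joining and constant stretch (star), with 72 CD4 and 56 CD8 bins, lies apart from the other stretches, which reach 26 in CD4 and 31 in CD8.

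H3K4me3 was low at both ends of the region and high in its middle blocks. In 9 successive blocks of 10 kb CD4 held 213, 667, 1239, 1617, 2165, 2212, 1541, 358 and 133 H3K4me3 reads. The same blocks held 63, 290, 467, 367, 780, 612, 776, 227 and 237 CD8 reads. CD4 was highest in the fifth and sixth blocks and CD8 in the fifth and seventh. Relative to the median window, CD4 was above CD8 in the first 8 blocks. The fold was largest in the fourth block, chr14:54800001-54810000, at 6.40 (5.71 to 7.19), but input there also had a fold of 1.77 (1.06 to 3.004). Divided by the fold of input, the fourth block came to 3.63, below the second at 4.44 and the sixth at 4.62. Input folds were imprecise, at 0.753 (0.463 to 1.21) in the second block and 1.14 (0.719 to 1.80) in the sixth. The divided values have no interval, so their order is not settled. The undivided fold was 2.29 (1.94 to 2.72) in the eighth block and 0.815 (0.654 to 1.01) in the ninth.

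Bin by bin, 63 of 73 bins tested were higher in CD4, by a fold of at least 2 and an exact interval, at an error rate of 0.001, that excluded 1. The rule called 1 bin higher in CD8. Of the 73, 17 had passed the enrichment filter in CD4 only, and 16 of them were among the 63, so a high CD4 count had brought them in. Among the 55 bins enriched in both cell types 47 were called higher in CD4. Over the genome 26.8% of 34592 tested bins were called higher in CD4 and 6.98% higher in CD8. Among bins enriched in both the shares were 17.6% and 7.09%, and nothing is read from the comparison because the region was chosen on this contrast. The median log2 ratio was 1.98 in the 73 bins, against 0.16 over all tested bins, and 1.86 in the 55.

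The highest CD4 bins were chr14:54823001-54824000 with 364 CD4 and 141 CD8 reads, a fold of 3.75 (3.08 to 4.59), and chr14:54809001-54810000 with 361 and 134, a fold of 3.91 (3.20 to 4.81). The third, chr14:54818001-54819000, had 301 CD4 and 50 CD8 reads, 8.75 times as many in CD4 (6.47 to 12.1). CD8 had most reads, 195, at chr14:54831001-54832000, where CD4 had 227 and the fold was 1.69 (1.39 to 2.06). Its next highest bin, chr14:54810001-54811000, had 270 CD4 and 170 CD8 reads, a fold of 2.31 (1.90 to 2.81). The bin at chr14:54823001-54824000 was among the 3 highest of both, while the fold differed between the peaks of CD8.

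The largest lower bounds of the fold fell on bins with few CD8 reads. At chr14:54797001-54798000 CD4 had 59 reads and CD8 had 2, a fold of 42.9 with an interval from 11.4 to 362, and this bin separates 2 CD8 runs of enriched bins. At chr14:54808001-54809000 CD4 had 171 and CD8 15 reads, a fold of 16.6 (9.77 to 30.2), and the neighbouring bin was the 134-read CD8 peak named above. At chr14:54794001-54795000 the reads were 215 in CD4 and 23 in CD8, a fold of 13.6 (8.82 to 21.9).

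CD4 was the more even profile over the 60 bins in the second to seventh blocks. The bins held from 32 to 364 CD4 reads with a median of 144. The same bins held from 2 to 195 CD8 reads with a median of 39.5. The coefficient of variation beyond counting error was 0.474 in CD4 and 0.753 in CD8 over these 60 bins, which were chosen after their values were seen. Over all 90 bins the gap was smaller, with 0.792 in CD4 and 0.958 in CD8. The 10 highest of the 60 bins held 30.04% of CD4 reads and, in the CD8 profile, 39.1% of CD8 reads. The profiles still shared their outline, with a Pearson's r of 0.652 between CD4 and CD8 across the 60 bins. Such correlations across bins are descriptions, since all bins share the same libraries and neighbours are alike. For the inputs r was 0.220.

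**Figure D2:**
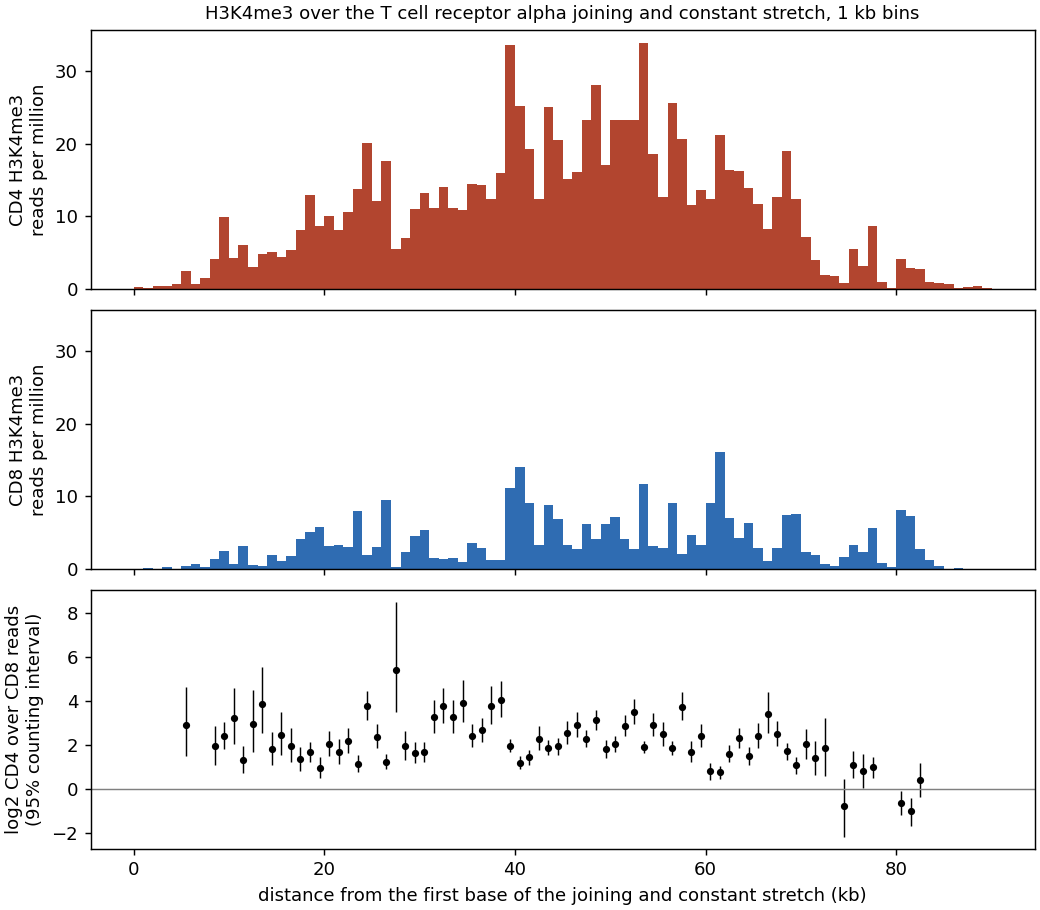
H3K4me3 RPM in each 1 kb bin of the joining and constant stretch in CD4 (top) and CD8 (middle), on the same vertical scale, and the log2 ratio of CD4 over CD8 reads in tested bins with 95% counting intervals (bottom, relative to the median window). CD4 shows a run of 65 enriched bins, CD8 shows separate peaks, and the ratio lies above 0 in 70 of 73 bins.

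Part of the far end of the region had more nearly equal H3K4me3. Over chr14:54844001-54854000 there were 314 CD4 and 397 CD8 reads, a fold of 1.15 (0.988 to 1.34). Within it the bins of chr14:54850001-54853000 held 103 CD4 and 218 CD8 reads, a fold of 0.687 (0.538 to 0.872). The bin at chr14:54851001-54852000, with 30 CD4 and 88 CD8 reads, was the only one of the region called higher in CD8, by 2.02 times (1.32 to 3.17). With 1 read kept per start position, where 24 CD4 and 42 CD8 positions remained, it was no longer called. In the last 6 bins, from chr14:54854001, H3K4me3 was down to 21 CD4 and 5 CD8 reads, a fold of 6.10 (2.24 to 20.7). Over input these were 0.737 for CD4 and 0.172 for CD8. The stretches of this end were chosen after their values were seen.

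Repeated start positions were a smaller share here than over the whole H3K4me3 libraries, as in most of the locus. In the region 75.2% of CD4 and 73.6% of CD8 reads had distinct positions, against 54.4% in CD4 and 31.4% in CD8 over the whole libraries. The share was 89.7% in CD4 and 82.3% in CD8 in the part before the joining segments. In the variable part without its first 200 kb it was 82.8% and 73.8%, but in those 200 kb 39.5% and 23.3%. With 1 read per position the joining region held 7631 CD4 and 2812 CD8 reads and a fold of 2.94. In it 72 CD4 and 57 CD8 bins were enriched, with longest runs again of 65 kb in CD4 and 27 kb in CD8. Bins higher in CD4 then numbered 54. The fold depends on what the distinct positions are scaled to. Scaled to the total of distinct positions, the log2 ratio was 0.82 in place of 1.55.

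The H3K4me3 libraries also differed in background. Away from enriched windows CD4 had 0.202 reads per input read and CD8 0.0146. At those rates background would give 69.7 CD4 and 4.13 CD8 reads in the joining region, which is 0.687% of its CD4 reads and 0.108% of its CD8 reads. With these subtracted the log2 ratio was 1.94 in place of 1.95.

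H3K36me3 covered most of the same stretch, with similar read numbers in the 2 cell types. The joining region held 1186 CD4 and 1219 CD8 H3K36me3 reads, a fold of 1.0 (0.925 to 1.09). CD4 stood at 5.20 times its input (4.60 to 5.87), and CD8 at 6.36 times (5.58 to 7.26). By the rule for this mark, at least 20 reads and 2 times the input in 10 kb windows, 8 of 9 windows were enriched in CD4 and 7 in CD8, where 10.3% and 10.2% of windows over the genome passed. None was called different between CD4 and CD8, against 2.08% of tested windows called higher in CD4 and 0.84% called higher in CD8 over the genome. Divided by input, the log2 ratio was -0.25. Input reads themselves had a fold of 1.20 (1.02 to 1.40).

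H3K36me3 was lowest in the first block and highest in the sixth in both cell types. The 9 blocks held 22, 53, 95, 118, 187, 242, 217, 183 and 69 CD4 reads, and 13, 37, 105, 145, 222, 267, 223, 132 and 75 CD8 reads. Over input this was 0.924 times in the first CD4 block and 9.37 times in the seventh, and 0.800 times in the first CD8 block and 11.7 times in the fifth. In the first block H3K36me3 was thus about at the level of input in both cell types, while H3K4me3 reached 5.61 times the input for CD4 and 2.16 times for CD8. The level of input is not the background of the mark. Away from enriched windows H3K36me3 stood at 31.7% of the input RPM in CD4 and 32.5% in CD8.

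The 2 marks differed in their course after the seventh block. In the 4 bins of chr14:54840001-54844000 H3K36me3 over input was 16.02 in CD4, with 159 reads, and 13.4 in CD8, with 109 reads. H3K4me3 over input was 9.86 in CD4, with 156 reads, and 4.25 in CD8, with 62 reads. H3K36me3 numbered 31 CD4 and 26 CD8 reads over the next 10 kb, and 62 CD4 and 72 CD8 reads in the last 6 kb of the region, or 3.47 times its input for CD4 and 4.43 times for CD8. The fold of H3K36me3 in the 4 bins was 1.5 (1.17 to 1.94), short of the size asked of a call, and these bins were picked after their values were seen.

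**Figure D3:**
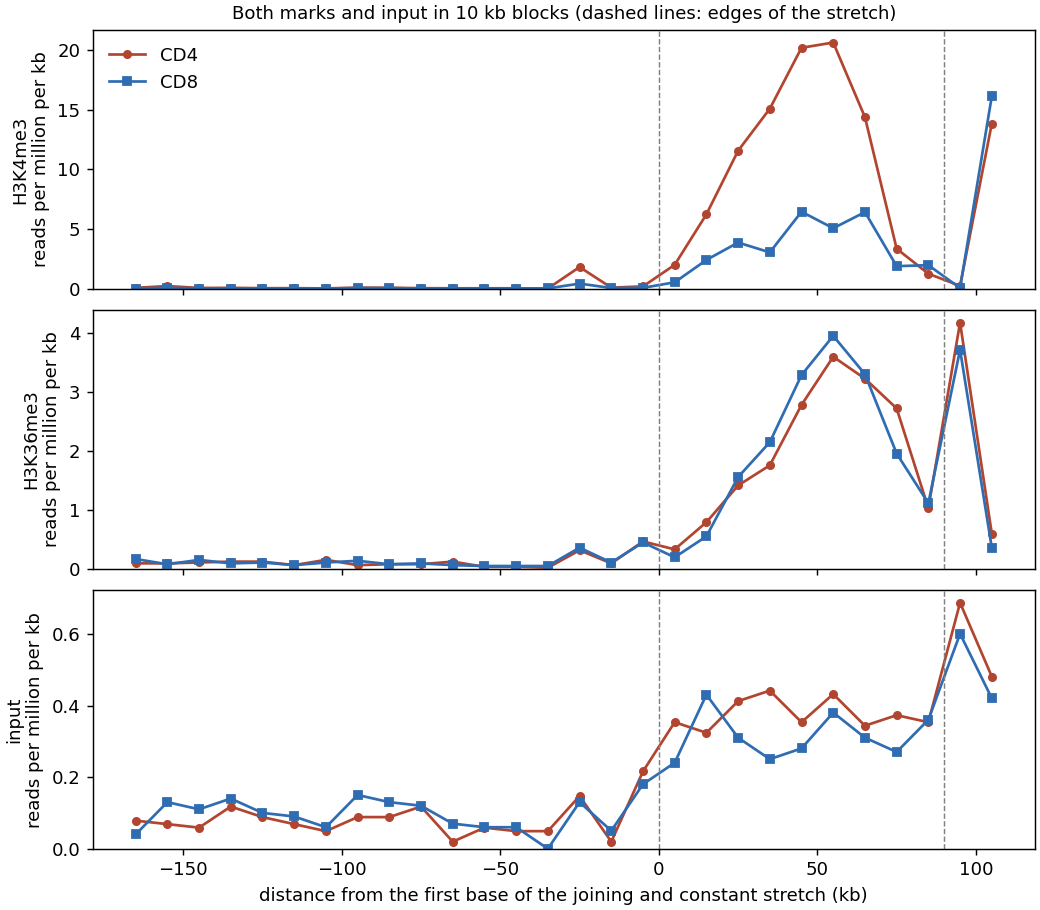
RPM per kb of H3K4me3 (top), H3K36me3 (middle) and input (bottom) in 10 kb blocks of CD4 and CD8, from 170 kb before the joining and constant stretch to 20 kb after it; dashed lines mark its edges. Within the stretch CD4 lies above CD8 for H3K4me3 in the first 8 blocks but not the ninth. For H3K36me3 the libraries lie close in most blocks. The eighth had a fold of 1.43 (1.14 to 1.80), and CD4 also had more reads in the first and second, where reads are few. Input is low before the stretch in both.

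Across the 60 bins in the second to seventh blocks r between H3K4me3 and H3K36me3 reads was 0.683 in CD4. In CD8 the value was 0.150. Over all 90 bins it was 0.527 in CD4 and 0.246 in CD8, and the 60 bins were chosen after their values were seen. For H3K36me3 between CD4 and CD8 it was 0.777. The bins hold a median of 13.5 CD4 and 15.5 CD8 H3K36me3 reads, which limits the precision of these correlations.

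**Figure D4:**
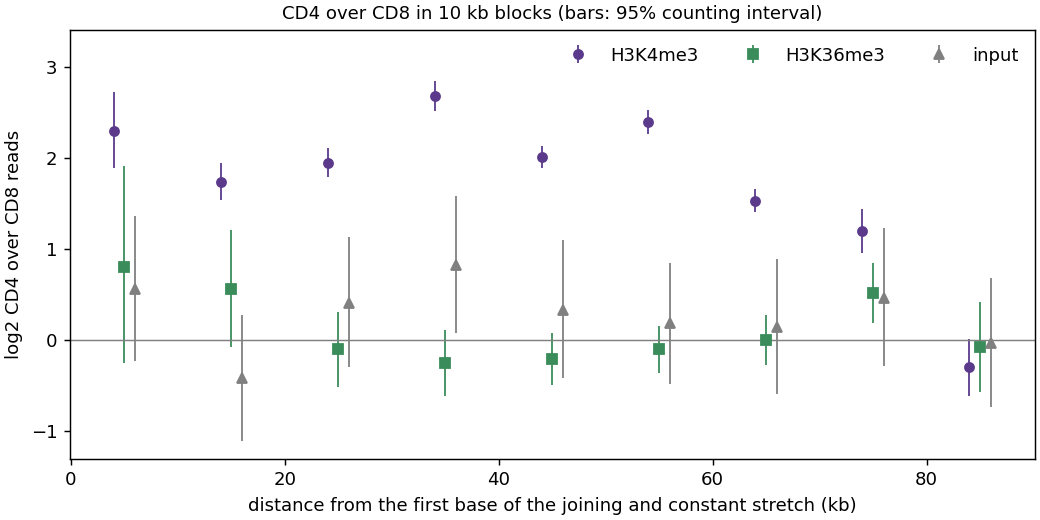
Log2 ratio of CD4 over CD8 reads in 9 successive 10 kb blocks of the joining and constant stretch, for H3K4me3 and H3K36me3 (relative to the median window) and input (relative to total reads), with 95% counting intervals. H3K4me3 lies above H3K36me3 and input in the first 8 blocks; in the last its interval reaches 0.

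Input reads were near the chromosome's usual level in the joining region and far below it in most of the rest of the locus. Among the 11756 windows of 10 kb on chromosome 14 with input reads in both cell types, the median was 41 CD4 and 40 CD8 input reads. The joining region had 345 CD4 and 283 CD8 input reads, 93.5% of that level in CD4 (83.9 to 104) and 78.6% in CD8 (69.7 to 88.3). Its 9 blocks held between 33 and 45 CD4 and between 24 and 43 CD8 input reads.

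The 170 kb before it had 141 CD4 and 162 CD8 input reads. That is 20.2% of the chromosome's level in CD4 (17.0 to 23.9) and 23.8% in CD8 (20.3 to 27.8). Of its 17 windows of 10 kb, 16 in CD4 and 17 in CD8 were below 0.5 of the median. So were 10.6% in CD4 and 9.71% in CD8 of the chromosome 14 windows with input reads in both cell types. That share leaves out windows empty in CD4 or CD8 input, while the counts for this locus keep them. Its bins of chr14:54750001-54756000 held no read of H3K4me3, H3K36me3 or input in either cell type. The variable part was also low, at 42.1% of the chromosome's level in CD4 and 41.9% in CD8. Of its 180 windows, 119 in CD4 and 114 in CD8 were below 0.5 of the median. This low level did not hold for its first 200 kb, a split made after the values were seen. They held 854 CD4 and 791 CD8 input reads, or 4.27 and 3.955 per kb. The other 1600 kb held 2255 and 2228, or 1.41 and 1.39 per kb. For the joining region these levels were 3.83 and 3.14 per kb. The last block before the joining region had 22 CD4 and 18 CD8 input reads, and the first block within it had 36 CD4 and 24 CD8 input reads. Loss of this DNA by recombination and low recovery of these sequences by sequencing cannot be told apart here, since no library of cells without the rearrangement was used.

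Reads of both marks were few in the part before the joining segments, as were input reads. H3K4me3 numbered 290 CD4 and 79 CD8 reads over the 170 kb, and 193 CD4 and 50 CD8 reads of these lay in a single block, chr14:54740001-54750000. Its 2 enriched bins were chr14:54743001-54744000, with 91 CD4 and 12 CD8 reads, and chr14:54744001-54745000, with 63 and 23. The first passed the enrichment filter in CD4 only. Enriched bins were thus 1.18% of this part's bins in CD4 and 0.588% in CD8, against 1.22% and 1.1% over the genome. Both bins were called higher in CD4, at 11.0 times (6.01 to 22.1) and 3.98 times (2.43 to 6.72). Of all tested bins in the genome, 26.8% were called higher in CD4. H3K36me3 numbered 134 CD4 and 144 CD8 reads, 1.44 and 1.31 times the input. By the rule for this mark, 2 of the 17 windows were enriched in each cell type. That is 11.8%, against 10.3% in CD4 and 10.2% in CD8 over the genome. The highest H3K36me3 block was the last before the joining segments, with 31 CD4 and 30 CD8 reads.

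In the variable part H3K4me3 lay in separate bins, never in runs of over 2 kb. Enriched bins numbered 34 in CD4 and 21 in CD8 of 1800, which is 1.89% of its bins in CD4 and 1.17% in CD8, against 1.22% and 1.1% over the genome. Of 34 tested, 17 were called higher in CD4, against 26.8% of tested bins over the genome, and 12 of the 17 had passed the filter in CD4 only. Among the 21 enriched in both, 5 were called, against 17.6% of such bins over the genome. The first 200 kb held 12 of the enriched bins in each cell type and 4762 CD4 reads out of 7403 and 7862 CD8 reads out of 8859. The bin with most reads in both cell types, chr14:52898001-52899000, had 880 CD4 and 1344 CD8 reads, a fold of 0.951 (0.873 to 1.04). In the RefSeq order the genes Chd8, Rab2b, Tox4, Mettl3 and Sall2 precede the first variable segment, Trav1. Whether these 200 kb cover them cannot be settled without an mm9 annotation.

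Without the first 200 kb, a split made after the values were seen, the variable part had a higher ratio. It held 2641 CD4 and 997 CD8 H3K4me3 reads in 1600 kb, a fold of 3.85 (3.58 to 4.14), with a level over input of 1.11 in CD4 and 0.369 in CD8. Background at the rates above would account for 17.3% of these CD4 reads and 3.26% of these CD8 reads, and with it subtracted the log2 ratio was 1.72 in place of 1.94. The 22 bins enriched in CD4 held 1193 CD4 and 647 CD8 reads, a fold of 2.68 (2.43 to 2.95). The other 1578 bins held 1448 CD4 and 350 CD8 reads, a fold of 6.01 (5.35 to 6.78). Background was not subtracted from these bins, and its rate per input read was 0.202 in CD4 against 0.0146 in CD8. How much it adds to this fold was not tested, so 6.01 is not comparable with 2.68. Among the 9 bins enriched in both cell types 3 were called higher in CD4, against 17.6% of such bins over the genome. Of the 13 enriched in CD4 only, 12 were called. A high CD4 count had brought these 13 in, so nothing is read from their calls. All of the variable part together gave another value: the fold was 1.21 (1.18 to 1.25), and the log2 ratio was 0.28, but -0.08 relative to total reads.

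The variable bins with the clearest difference were chr14:54424001-54425000 with 38 CD4 and 5 CD8 reads, a fold of 11.0 (4.34 to 35.9), and chr14:53698001-53699000 with 146 and 36, a fold of 5.89 (4.07 to 8.74). The third, chr14:54426001-54427000, had 36 and 6 reads and a fold of 8.72 (3.64 to 25.3). With 1 read per position the first kept 16 CD4 and 5 CD8 reads. The variable bins called higher in CD4 then numbered 8 in place of 17. H3K36me3 in the variable part without its first 200 kb had a level over input of 0.818 in CD4 and 0.891 in CD8, from 1221 CD4 and 1345 CD8 reads. Background at the rates away from enriched windows would account for 38.7% of these CD4 reads and 36.5% of these CD8 reads. Of the 180 windows of 10 kb in the variable part, 25 held no CD4 input read and 32 no CD8 input read. The part that low input plays in these counts was not tested.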

How the data were processed

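The deposited files hold other values than counts: the start and end of 1 aligned read per line, 33 bp wide, with no strand or score, aligned to mm9, a mouse build, per the submitters' processing notes. Which aligner was run, and whether multiply matching or repeated reads were dropped, is not given in the sources used here. Reads of chromosomes 1 to 19, X and Y were kept, between 6730337 and 12114294 per library, and assigned to bins by their midpoint. Coordinates are printed 1-based, and an offset of 1 bp was not excluded. Strand is not given, so reads were not shifted to the nucleosome centre.

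Reads were counted in 1 kb bins for H3K4me3 and 10 kb windows for H3K36me3. Ratios were centred on the median window enriched in both cell types, which raised log2 ratios by 0.36 for H3K4me3 and 0.04 for H3K36me3 over total-read scaling; input was scaled to total reads. Intervals are exact (Clopper-Pearson, conditional on the sum) and cover counting error only; without molecular identifiers, reads cannot be taken for independent molecules. Windows enriched in either cell type were tested. Background was measured in 2 kb windows at least 10 kb from any with more than 9 reads of either mark. In each part the named bins were the 3 with most reads in each cell type and the 3 of each direction with the largest lower bound. The region, bins and lists were chosen with earlier results of these data known. The rule for differences was run on simulated counts that varied by counting error alone. That run cannot show how the rule behaves with repeated start positions, unequal background or variation between replicates. No sequence is printed, since no mm9 genome was used. Tools were pandas 2.3.3, NumPy 2.4.6, SciPy 1.17.1 and matplotlib 3.10.9 under Python 3.11.15.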

Additional observations from a re-analysis of the deposited data

How the results depend on the processing

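No paired analysis was possible because each group has 1 library. Of 157 values recomputed under other settings, 119 kept within their interval or within 1.5 times the count, 38 moved, and none of the called ratios reversed. The log2 ratio of H3K4me3 in the joining region, 1.95, was 1.55 with 1 read per position, 1.58 with total-read scaling, 1.69 divided by input, 1.65 with a centre fitted along mean read counts, 0.82 with 1 read per position and total scaling, and 2.06 without its first 10 kb and last 20 kb. For H3K36me3 there it was -0.25 divided by input. Between the variable and joining parts H3K4me3 gave 2.05, 1.82 and 1.38 with total scaling, the fitted centre, and 1 read per position with total scaling. In the variable part it gave 1.94 without the first 200 kb, 1.72 with background subtracted as well, 0.78 with 1 read per position, -0.084 with total scaling, 0.16 with background subtracted, 0.22 with the fitted centre and 0.048 with 1 read per position and total scaling. In the joining region, enriched CD8 bins numbered 28 at 50 reads, the CD8 run measured 7 kb at 8-fold, windows higher in CD4 numbered 33 at 2 kb, where there are fewer windows by construction, and the bin higher in CD8 was lost (0) with 1 read per position, at 3-fold and in 2 kb windows. Before the joining segments the CD8 bin was lost (0) with 1 read per position, at 8-fold and at 50 reads, and of the 2 enriched H3K36me3 windows of CD4 and of CD8, 0 remained at 3-fold and 1 at 30 reads. In the variable part, enriched CD4 bins numbered 19 at 50 reads, enriched bins numbered 22 in CD4 and 9 in CD8 without the first 200 kb, bins higher in CD4 numbered 8 with 1 read per position and 5 where only bins enriched in both cell types were tested (1 before the joining segments), and total scaling called 2 H3K4me3 bins and 1 H3K36me3 window higher in CD8. Stricter limits and fewer bins reduce counts by construction; elsewhere the cause was not tested. The fitted centre, the doubled choice, the left-out ends and first 200 kb, limiting tests to bins enriched in both, and leaving out bins of more than 30 input reads were chosen after seeing the data. Low input in the variable part limits how finely its bins can be compared.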

Other observations

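The 20 kb after the joining region, on the side of Dad1 in the RefSeq order, showed another arrangement of the marks. The first 10 kb, chr14:54860001-54870000, had 24 CD4 and 5 CD8 H3K4me3 reads but 281 CD4 and 251 CD8 H3K36me3 reads, a fold of 1.15 (0.970 to 1.37) for H3K36me3. The next 10 kb had 1482 CD4 and 1951 CD8 H3K4me3 reads, a fold of 1.10 (1.03 to 1.18), and 40 CD4 and 24 CD8 H3K36me3 reads. Distinct positions made up 533 of those CD4 and 518 of those CD8 H3K4me3 reads, a smaller share than in the joining region. Total-read scaling gave this block a log2 ratio of -0.22. The 2 blocks were chosen after their values were seen.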
